A study of Mus musculus with 12 samples.

Results

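Among 18412 genes measured in mouse embryonic stem cells (ESCs), 22 had at least 2.0 times more exonic reads in both a Dicer1 knockout and a Dgcr8 knockout than in the wild-type line set against each, while their intronic reads stayed between 33% below and 25% above the wild-type level. They are Atrn, Cep55, Clock, Dazap2, Fam234b, Glis3, Il6st, Lamp2, Map3k2, Mbd2, Mkl2 (Mrtfb in GENCODE), Mtf1, Nagpa, Pafah1b2, Pfkm, Phc3, Slc25a40, Spryd3, Tmem38b, Urgcp, Zfp367 and Zfp91. The ratio was taken as (knockout + 1)/(wild type + 1) of the authors' group means. A gene also needed at least 20 normalised exonic reads in the wild type and a mean of at least 20 intronic reads over knockout and wild type, in each pair. Of the 8889 genes above these levels, 8.29% in the Dicer pair and 8.37% in the Dgcr8 pair had the exonic ratio, each pair taken alone. Flat introns by this rule in both pairs were found in 2529 genes, and 22 of those, or 0.87%, had the exonic ratio in both. Ago1, Tnrc6a, Tnrc6b, Lats2, Rbl2, Casp2 and Ei24 were left out by name, and none of the 7 met all limits. The 22 genes were chosen by the exonic and intronic reads of both knockouts, so these values are given below as a description, with no test.

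PolyA RNA was sequenced strand-specifically from 12 libraries, 3 in each of 4 groups. Dicer1-/- ESCs were set against the wild-type line TFC, and Dgcr8-/- ESCs against the wild-type line V6.5. Cells of every group grew on gelatin-coated plates in medium that held serum and leukaemia inhibitory factor (LIF), and the deleted stretch of either gene is not named in the labels. Each genotype is 1 line, and effects of losing Dicer1 or Dgcr8 and of line background cannot be told apart.

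Dgcr8 binds the hairpins of microRNA primary transcripts in the nucleus for the nuclease Drosha, and Dicer cuts the exported hairpins into mature microRNAs. An Argonaute protein carries the microRNA, whose seed near the 5′ end pairs with sites in the 3′ UTRs of messenger RNAs and lowers their stability and translation. In mouse ESCs the miR-290 cluster and the miR-17 family are among the most abundant microRNAs. Their seeds and that of the miR-302 cluster share most of their letters. Levels of microRNAs were not measured in these libraries. Intronic reads come largely from transcripts that are not yet spliced and are commonly used as a proxy for transcription, while exonic reads come mostly from mature messenger RNA.

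The sequences of the 22 genes' 3′ UTRs were not used in choosing them. The mature microRNAs whose seeds were searched are shown first, 5′ to 3′, with bases 2 to 8 in capitals. They come from RefSeq (GRCm38.p6). The following 5 share the seed AAGUGCU, which pairs with AGCACTT in a UTR. The first 3 lie in the miR-290 cluster on chromosome 7 (miR-294-3p at chr7:3220691-3220712, plus strand), and the others in the miR-302 cluster on chromosome 3 (miR-302b-3p at chr3:127545275-127545297, plus strand).
mmu-miR-291a-3p: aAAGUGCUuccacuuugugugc
mmu-miR-294-3p: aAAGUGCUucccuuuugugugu
mmu-miR-295-3p: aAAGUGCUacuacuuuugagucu
mmu-miR-302b-3p: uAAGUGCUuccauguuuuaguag
mmu-miR-302d-3p: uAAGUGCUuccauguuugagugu

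The miR-17 family has the seed AAAGUGC, the same letters shifted by 1 base, which pairs with GCACTTT. Where the strings overlap, a UTR holds both matches at 1 place. Members on chromosome 14 (miR-20a-5p at chr14:115044183-115044205, plus strand) and chromosome 5 (miR-106b-5p at chr5:138165787-138165807, minus strand) are shown.
mmu-miR-17-5p: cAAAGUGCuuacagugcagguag
mmu-miR-20a-5p: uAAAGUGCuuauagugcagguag
mmu-miR-106b-5p: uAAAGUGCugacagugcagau

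A 7-base match to the miR-294-3p seed was present in the longest annotated 3′ UTR of 17 of the 22 genes, or 77.3%. The strings were read on the transcript strand only. The longest UTR may reach outside the exons in which reads were counted. Those of Il6st and Pafah1b2 have 5641 and 5829 bases, more than the 5452 and 4241 bases of all their counted exons. Among 2503 other genes with flat introns and an annotated UTR, 17.8% held the match, and over all 18176 genes with a UTR 15.1% did. Among 275 genes whose exonic ratio reached 2.0 in both pairs but whose introns were not flat in both, the share was 32.7%. The miR-20a-5p seed was matched in 13 of the 22 genes, or 59.1%, against 14.6% of the other genes with flat introns. A match to either was present in 18 of the 22 genes, the exceptions being Nagpa, Pfkm, Spryd3 and Urgcp. Pafah1b2 held only the miR-20a-5p match.

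**Figure D1:**
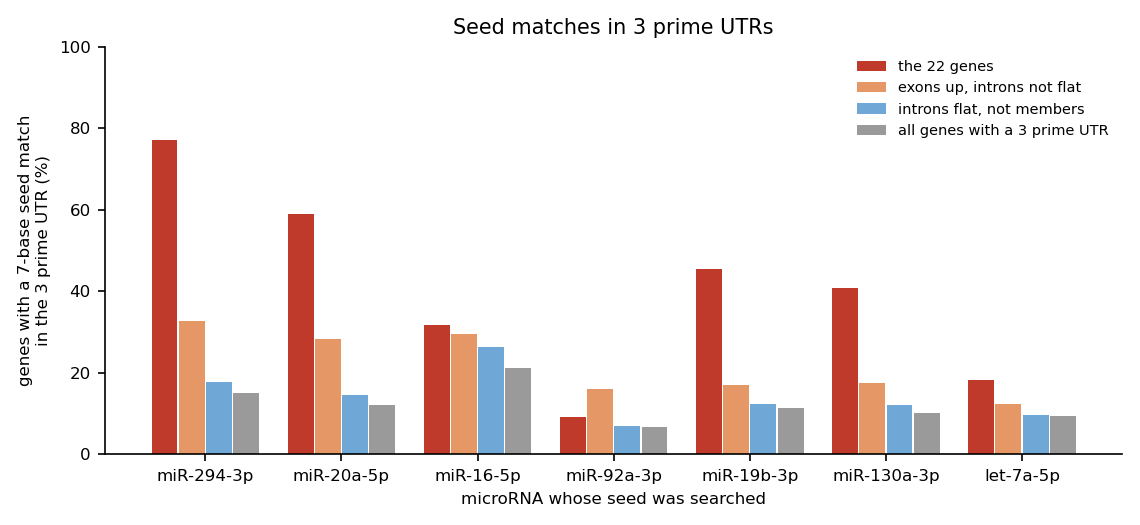
Bars give the share of genes (%) whose longest 3′ UTR holds a 7-base match to the seed of each microRNA, for the 22 genes, the genes with exons up and introns not flat, the other genes with flat introns, and all genes with a UTR. The tallest bar is miR-294-3p in the 22 genes, 77.3%, and the miR-92a-3p bar of the 22 genes stands at 9.09%.

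Of the other seeds searched, miR-19b-3p (GUGCAAA) was matched in 10 of the 22 genes against 12.3% of the other genes with flat introns, and miR-130a-3p (AGUGCAA) in 9 against 12.1%. The shares were closer for miR-16-5p (AGCAGCA), with 7 genes or 31.8% against 26.2%, and for miR-92a-3p (AUUGCAC), with 2 genes or 9.09% against 6.99%. The let-7a-5p seed GAGGUAG, of a family that is scarce in undifferentiated ESCs, was matched in 4 genes, 18.2% against 9.51%. With all 1398 distinct seeds of the mouse microRNAs in RefSeq ranked by the share in the 22 genes minus the share in the other genes with flat introns, AAGUGCU came 1st at 59.5 percentage points and AAAGUGC 2nd at 44.5, with a median of 8.55 over all seeds. The order depends on the measure. By the ratio of these shares AAGUGCU had 4.34 and AAAGUGC 4.05, and some seeds had more. Examples are GGGACUU at 4.83, matched in 9 of the 22 genes, and CUGAUGA at 4.78, matched in 11. Neither measure allows for UTR length. Many of these seeds overlap each other in letters, so the ranks are not independent.

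The 22 genes had longer UTRs, with a median of 2282 bases against 1185 in the other genes with flat introns, and a longer UTR holds more strings of any kind. Per kilobase of UTR, the 22 genes had 0.34 miR-294-3p matches and the others 0.135. In UTRs over 1869 bases the match was present in 13 of 15 of the 22 genes and in 35.2% of the others. Between 690 and 1869 bases it was present in 3 of 4 and in 14.9%. In UTRs of up to 690 bases the match was in 1 of 3 of the genes (Mbd2, but not Nagpa or Pfkm) and in 3.36% of the others. In the genes with exons up and introns not flat the shares were 53.1%, 26.7% and 4.92%, from the longest range to the shortest. Those shares lay between the 22 genes and the others with flat introns. Within each of these length ranges the share was highest in the 22 genes, although each range held few of them.

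The UTRs of the 22 genes held 25 miR-294-3p matches and 22 miR-20a-5p matches, and 11 of these coincided at 1 place. An A next to the match, opposite the first base of the microRNA, makes an 8-base match, and 6 genes had one: Lamp2, Mbd2, Mtf1, Phc3, Tmem38b and Zfp367. That is 27.3% of the genes, against 3.52% of the others with flat introns. Matches lay anywhere along the UTR: 5 in its first 25% and 8 in its last 25%. The sites of the 5 genes with the largest sum of both exonic ratios are printed as 30 bases of the transcript strand (GRCm38), with the match in capitals. Dazap2 has its miR-294-3p match near the start of the UTR, 46 bases in, at chr15:100619520-100619549 (plus strand). Glis3 has it at chr19:28259544-28259573 (minus strand), in a place that also holds the miR-20a-5p match. Cep55 has it at chr19:38073724-38073753 (plus strand). Of the 2 matches in Clock the one at chr5:76212852-76212881 (minus strand) is shown, and of the 2 in Zfp367 the 8-base match at chr13:64133615-64133644 (minus strand).
Dazap2: ggggaagacatcacataccttcAGCACTTc
Glis3: ctcagtaatgttgctgacataaAGCACTTt
Cep55: agcagtggctatccaaacttgtAGCACTTc
Clock: agcatcattttgaaaggtaataAGCACTTt
Zfp367: ggtatgtagaattttaacttggAGCACTTA

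The 8-base matches of 4 more genes are shown because the match is longer. Lamp2 has its at chrX:38420725-38420754 (minus strand), Mtf1 at chr4:124847636-124847665 (plus strand), Phc3 at chr3:30904829-30904858 (minus strand) and Tmem38b at chr4:53861598-53861627 (plus strand).
Lamp2: tccagtttgcattgactgctacAGCACTTA
Mtf1: agttaagttgaggtgtaaaaagAGCACTTA
Phc3: ttcatttcctttcttattactaAGCACTTA
Tmem38b: aggcatttttggttggttaagaAGCACTTA

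For contrast, Pafah1b2 has no miR-294-3p match, and its miR-20a-5p match is at chr9:45968605-45968634 (minus strand). It also has 2 miR-16-5p matches and 1 miR-130a-3p match, which are not printed.
Pafah1b2: cactacagaatcctttcttaagGCACTTTg

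**Figure D2:**
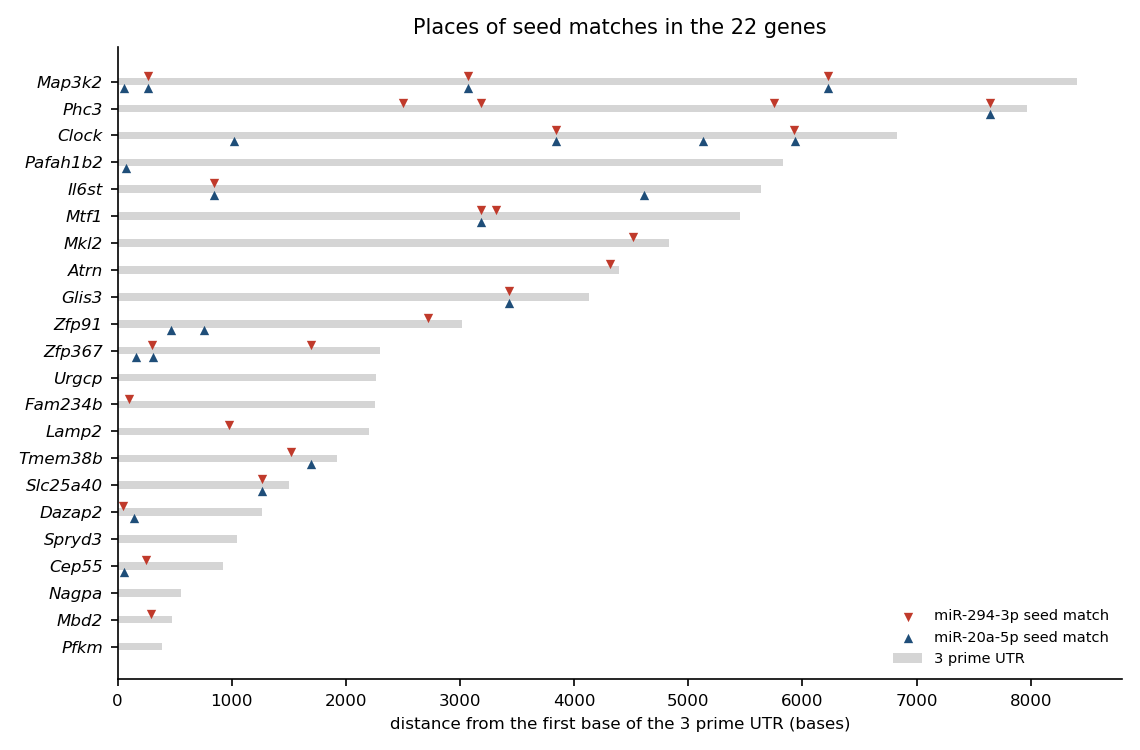
Each grey bar is the longest annotated 3′ UTR of 1 of the 22 genes, drawn to scale by distance in bases from its first base, with triangles at the starts of miR-294-3p and miR-20a-5p seed matches. UTRs run from 392 bases in Pfkm to 8403 bases in Map3k2, and those of Nagpa, Pfkm, Spryd3 and Urgcp hold neither match.

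The deposited tables give 1 group mean per genotype. The value of each gene in each library was recovered from these means, and all 22 genes had a single solution in every library. The libraries carry no replicate number and are called A, B and C, where A is the one least correlated with the other 2 of its group in exons. Libraries held between 5889725 and 31132037 recovered exonic reads and between 559057 and 5597604 intronic ones. Across genes in exons, A correlated with B or C at r of 0.74 to 0.861, and B with C at 0.808 to 0.921. The labels do not say whether the 3 libraries of a genotype are separate cultures, so the spread between them may be technical. Each table was scaled by the authors on its own, so levels are not compared between tables or between the pairs.

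In exons, the median ratio of knockout to wild type over the 22 genes was 2.39 in the Dicer pair and 2.24 in the Dgcr8 pair, and in introns 0.988 and 0.988. Over the 8889 genes above the level limits the exonic medians were 0.97 and 0.997. Most of the 22 genes lay close to the limit: 18 in the Dicer pair and 17 in the Dgcr8 pair had a ratio under 2.5. All 3 knockout libraries lay above all 3 wild-type libraries in 20 of the 22 genes in the Dicer pair, where 12.9% of the genes above the level limits did, and in 13 of 22 in the Dgcr8 pair, where 11.3% did. The rule used these same reads, so nothing is read from the counts. Without library A of every group, the median exonic ratios were 2.44 and 2.46, and 18 of the 22 genes still reached 2.0 in both pairs. Mtf1 and Pafah1b2 then had 1.85 and 1.87 in the Dicer pair, and Nagpa and Pfkm 1.87 and 1.95 in the Dgcr8 pair.

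**Figure D3:**
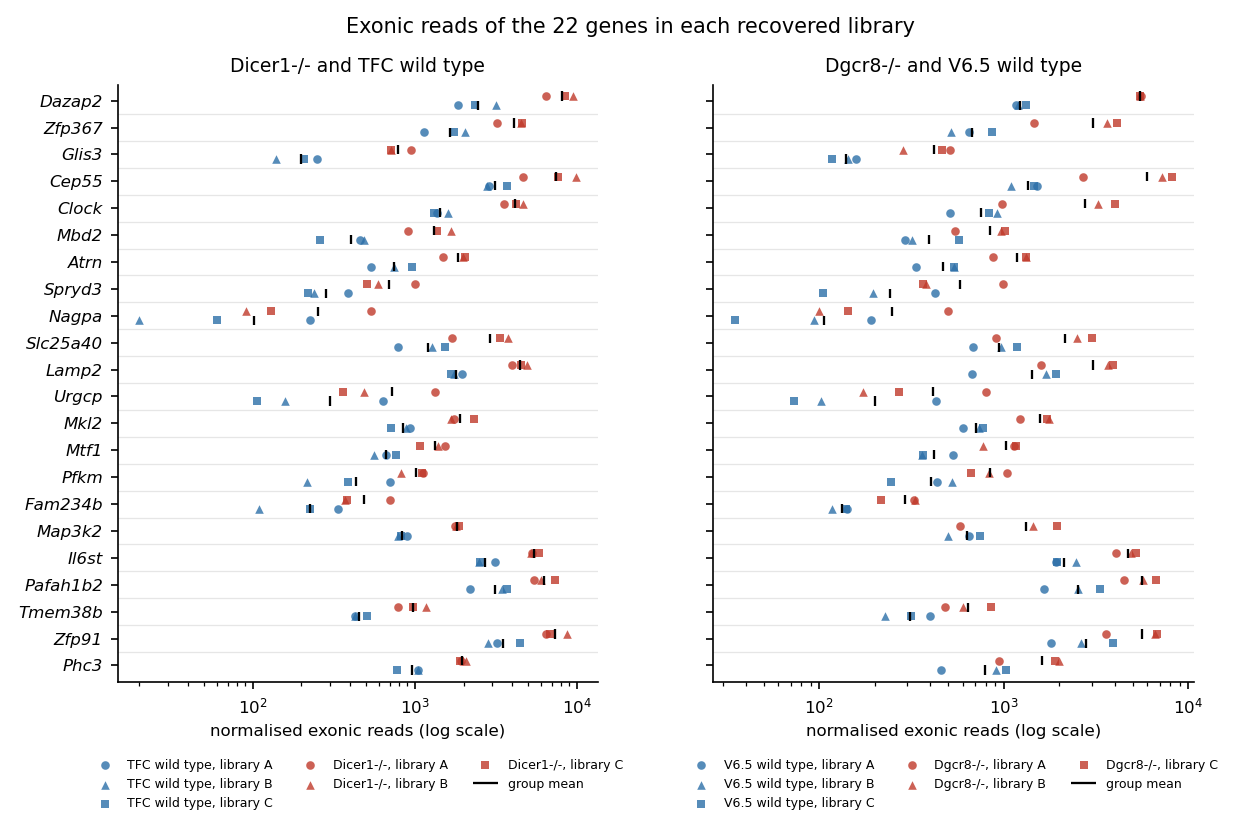
Points are normalised exonic reads (log scale) of each of the 22 genes in each recovered library, knockout in red and wild type in blue, with the shape giving the library and a black tick the group mean. Dazap2 libraries lie far apart by genotype in both panels, while in Nagpa and Urgcp the A library of each wild type lies above the B and C libraries of the knockout.

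Among the 8 genes of transcription and chromatin, ratios ran from 2.01 to 3.97 in the Dicer pair and from 2.02 to 4.53 in the Dgcr8 pair, and all 8 held a miR-294-3p match. Glis3 (chr19:28258851-28680077, minus strand; gene positions are those of GENCODE vM21 on GRCm38) encodes a Krüppel-like zinc-finger factor known from pancreatic beta cells and the thyroid. Its exonic reads, in the order A, B and C as for all genes below, were 944, 718 and 712 in Dicer1-/- libraries, against 249, 140 and 207 in TFC. In Dgcr8-/- they were 514, 286 and 462, against 157, 143 and 118 in V6.5. The groups did not overlap in either pair, and the ratios were 3.97 and 2.9996. Intronic reads of Glis3 had group means of 157 and 157 in the Dicer pair and 71.5 and 71.6 in the Dgcr8 pair, yet the Dicer1-/- libraries ranged from 59.3 to 301.

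Clock (chr5:76209868-76304792, minus strand) is the circadian transcription factor that pairs with Arntl. Its exonic reads were 3540, 4664 and 4191 in Dicer1-/- and 1373, 1596 and 1315 in TFC, a ratio of 2.89. In Dgcr8-/- library A had 980 reads and libraries B and C 3254 and 4004, against 510, 924 and 832 in V6.5, a ratio of 3.63. Every knockout library exceeded every wild-type one, although Dgcr8-/- A did so by little. Its introns stood at 1.15 and 1.11 times the wild-type mean.

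Zfp367 (chr13:64133018-64153202, minus strand) is a zinc-finger protein. It had 3217, 4523 and 4605 exonic reads in Dicer1-/- and 1148, 2034 and 1758 in TFC. In Dgcr8-/- it had 1454, 3605 and 4129, against 645, 519 and 862 in V6.5. Its ratio of 4.53 in the Dgcr8 pair was the highest of the 22, against 2.498 in the Dicer pair. Intronic reads were 522, 415 and 466 against 494, 621 and 492 in the Dicer pair, ratio 0.874, and 169, 411 and 339 against 335, 333 and 298 in the Dgcr8 pair, ratio 0.951. Zfp367 was the only gene to meet the rule whichever 1 of the 12 exonic or 12 intronic libraries was left out.

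Mbd2 encodes a protein that binds methylated CpG sites and recruits the NuRD repressor complex, and it is a reported miR-302 family target. Exonic reads were 906, 1679 and 1365 in Dicer1-/- and 460, 485 and 262 in TFC, with no overlap and a ratio of 3.27. In the Dgcr8 pair, knockout libraries had 545, 963 and 1011 reads and V6.5 292, 317 and 575. There the lowest knockout library lay below the highest wild-type one, and the ratio was 2.12.

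Mkl2 (chr16:13256481-13417529, plus strand) is a coactivator of serum response factor. Its exonic reads were 1737, 1663 and 2316 in Dicer1-/- and 940, 888 and 718 in TFC, and 1218, 1764 and 1725 in Dgcr8-/- against 604, 738 and 775 in V6.5. The ratios were 2.24 and 2.22, with no overlap in either pair. Mtf1 (chr4:124802104-124849800, plus strand) is the factor that induces metallothioneins in response to metals. It had 1543, 1390 and 1077 exonic reads against 668, 560 and 769 in the Dicer pair, and 1134, 774 and 1170 against 533, 358 and 363 in the Dgcr8 pair. Its ratios were 2.01 and 2.45, also with no overlap, and its introns stood at 0.766 and 0.683, the latter near the lower limit of 0.67. Phc3 (chr3:30899371-30969415, minus strand) encodes a polyhomeotic subunit of the canonical Polycomb repressive complex that ubiquitinates histone H2A. It had 1963 reads against 959 in the Dicer pair and 1607 against 795 in the Dgcr8 pair. Its intronic reads in the Dicer pair lay lower in all knockout libraries (167, 153 and 171) than in all TFC libraries (250, 182 and 224). Zfp91 (chr19:12763660-12796126, minus strand), a zinc-finger protein with ubiquitin ligase activity, had ratios of 2.09 and 2.03. The exonic groups of Phc3 and Zfp91 overlapped in the Dgcr8 pair, where library A was the lowest of its group for both genotypes.

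The 3 receptor and signalling genes all held a miR-294-3p match. Il6st (chr13:112464070-112510086, plus strand) encodes gp130, the signal-transducing receptor subunit that LIF uses to sustain ESCs. Its exonic reads were 5289, 5239 and 5827 in Dicer1-/- and 3138, 2485 and 2521 in TFC, a ratio of 2.01. In Dgcr8-/- they were 4033, 4894 and 5232, against 1912, 2478 and 1935 in V6.5, a ratio of 2.24. The groups did not overlap in either pair, and introns stood at 1.17 and 1.01 times the wild type.

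Map3k2, a kinase of the MAP kinase cascades, had ratios of 2.16 and 2.10. Its Dicer pair was even across libraries, 1769, 1788 and 1886 against 902, 790 and 828, but in Dgcr8-/- library A had 582 reads and B and C 1438 and 1955, against 645, 501 and 746 in V6.5. The ratio in the Dgcr8 pair was 1.60 without library C of the knockout, the lowest such value. Atrn (chr2:130906495-131030333, plus strand) encodes attractin, a membrane protein of the melanocortin pathway in pigmentation. It had 1497, 1989 and 2054 exonic reads against 534, 743 and 967 in the Dicer pair, and 879, 1327 and 1314 against 335, 537 and 536 in the Dgcr8 pair. That gave ratios of 2.468 and 2.497, and the groups did not overlap in either pair.

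Of the 6 genes of lysosome, metabolism and transport, 3 held a miR-294-3p match, and exonic ratios ran from 2.01 to 2.48 in the Dicer pair and from 2.06 to 2.31 in the Dgcr8 pair. Lamp2 (chrX:38401357-38456454, minus strand) encodes a lysosomal membrane protein of chaperone-mediated autophagy. It had 3966, 4893 and 4500 exonic reads in Dicer1-/- and 1948, 1758 and 1670 in TFC. In Dgcr8-/- it had 1587, 3668 and 3895, against 673, 1692 and 1908 in V6.5. In the Dgcr8 pair library A was low in both genotypes, so the groups overlapped although the ratio was 2.14.

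Slc25a40 (chr5:8422850-8454797, plus strand), a mitochondrial carrier, likewise overlapped in the Dgcr8 pair, with 911, 2508 and 3001 reads against 680, 969 and 1175, and had a ratio of 2.43 without overlap in the Dicer pair. Tmem38b (chr4:53826045-53862019, plus strand) encodes a cation channel of the endoplasmic reticulum. It had 790, 1173 and 976 reads against 427, 430 and 509, and 480, 601 and 850 against 396, 226 and 314, with ratios of 2.15 and 2.06 and no overlap.

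Pafah1b2 (chr9:45962859-46012690, minus strand) encodes a catalytic subunit of platelet-activating factor acetylhydrolase. Its libraries had 5425, 6041 and 7290 exonic reads against 2190, 3443 and 3689 in the Dicer pair, and 4464, 5699 and 6663 against 1656, 2536 and 3341 in the Dgcr8 pair. Library A was lowest in all 4 groups, and the groups did not overlap. Pfkm (chr15:98092589-98132451, plus strand) encodes the muscle form of the glycolytic enzyme phosphofructokinase. It had 1131, 827 and 1108 exonic reads against 700, 218 and 390, and 1040, 834 and 667 against 437, 525 and 244, with ratios of 2.34 and 2.10 without overlap. Its intronic libraries in the Dgcr8 pair ranged from 4.63 to 47.8 reads in the knockout and from 6.24 to 60.3 in V6.5.

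Nagpa (chr16:5195289-5204012, minus strand) encodes the enzyme that uncovers the mannose 6-phosphate tag of lysosomal enzymes. Its exonic reads were 535, 90.9 and 130 in Dicer1-/-, and 227, 20.01 and 60.4 in TFC. In Dgcr8-/- they were 499, 99.4 and 142, against 190, 93.4 and 35.1 in V6.5. Library A was highest in all 4 groups, the groups overlapped in both pairs, and the ratio without 1 library ranged from 1.08 to 6.14 in the Dicer pair and from 1.14 to 3.80 in the Dgcr8 pair. Its intronic reads in V6.5 were 11.8, 58.0 and 0, so its flat introns rest on few reads.

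Of the remaining 5 genes, Dazap2 had the largest sum of both ratios among all 22 genes. The gene lies at chr15:100615349-100620761, plus strand. It encodes a small proline-rich protein first found through its binding to the germ-cell protein DAZ. Its exonic reads were 6410, 9419 and 8411 in Dicer1-/- and 1852, 3184 and 2342 in TFC, a ratio of 3.28. In Dgcr8-/- they were 5547, 5441 and 5492, against 1168, 1194 and 1317 in V6.5, a ratio of 4.48. In the Dgcr8 pair the 3 libraries of each genotype lay close together. Dazap2 was the only 1 of the 22 with a ratio of at least 3 in both pairs, Glis3 falling just under it in the Dgcr8 pair. Its intronic reads were few, 34.0, 39.3 and 48.0 against 27.4, 91.2 and 25.2 in the Dicer pair, and 39.3, 18.3 and 39.4 against 47.4, 55.7 and 39.9 in the Dgcr8 pair. In the latter they were lower in every knockout library.

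Cep55 (chr19:38055011-38074423, plus strand) encodes a midbody protein needed for the final cut between daughter cells. It had 4665, 9863 and 7680 exonic reads in Dicer1-/- and 2883, 2773 and 3686 in TFC, a ratio of 2.38. In Dgcr8-/- it had 2676, 7211 and 8141, against 1516, 1093 and 1458 in V6.5, a ratio of 4.43. Without library A of every group the ratio in the Dgcr8 pair was 6.01. The intronic ratio there, 1.23, lay near the upper limit.

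Fam234b (chr6:135197977-135244955, plus strand) had 703, 374 and 384 exonic reads in Dicer1-/- against 336, 110 and 227 in TFC, and 326, 329 and 216 in Dgcr8-/- against 142, 118 and 140 in V6.5. The groups did not overlap, with ratios of 2.16 and 2.16, but its intronic reads in TFC were 37.1, 0 and 89.4. Spryd3 (chr15:102116528-102136234, minus strand) had 997, 593 and 506 reads against 386, 240 and 219, and 990, 378 and 366 against 424, 196 and 105, with library A highest in each group. Urgcp (chr11:5713417-5762376, minus strand) had 1332, 486 and 361 exonic reads in Dicer1-/- against 638, 158 and 106 in TFC, and 805, 172 and 270 in Dgcr8-/- against 429, 102 and 73.3 in V6.5. Library A held the highest Urgcp value in all 4 groups, and the groups overlapped in both pairs. Its ratio without 1 library ranged from 1.41 to 5.47 in the Dicer pair and from 1.099 to 4.71 in the Dgcr8 pair.

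The 4 genes without a match to either seed thus include Nagpa and Urgcp, the only 2 whose exonic groups overlapped in the Dicer pair. Spryd3 overlapped in the Dgcr8 pair and Pfkm in neither. The median exonic ratios of these 4 genes were 2.43 and 2.21, against 2.31 and 2.24 in the 18 with a match. Among the 18, overlap was found in none in the Dicer pair and in 6 in the Dgcr8 pair. When 1 exonic library was left out at a time, the 4 genes met the rule in 6 to 9 of 12 cases, and the 18 in 6 to 12. Each such case drops a library from 1 genotype only. The letters were given in each group on its own, so library A of a knockout is not known to match A of its wild type. With that limit, ratios of Nagpa taken within library A and within B and C were 2.35 and 2.71 in the Dicer pair. They were 2.61 and 1.87 in the Dgcr8 pair. Those of Urgcp were 2.08 and 3.19 in the Dicer pair, and 1.87 and 2.51 in the Dgcr8 pair.

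Exonic ratios of the 22 genes in the 2 pairs were within 1.2 times of each other for 15 genes. Cep55, Clock, Dazap2, Mtf1 and Zfp367 were over 1.2 times higher in the Dgcr8 pair, and Glis3 and Mbd2 in the Dicer pair. These differences were not tested, since both ratios chose the genes.

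**Figure D4:**
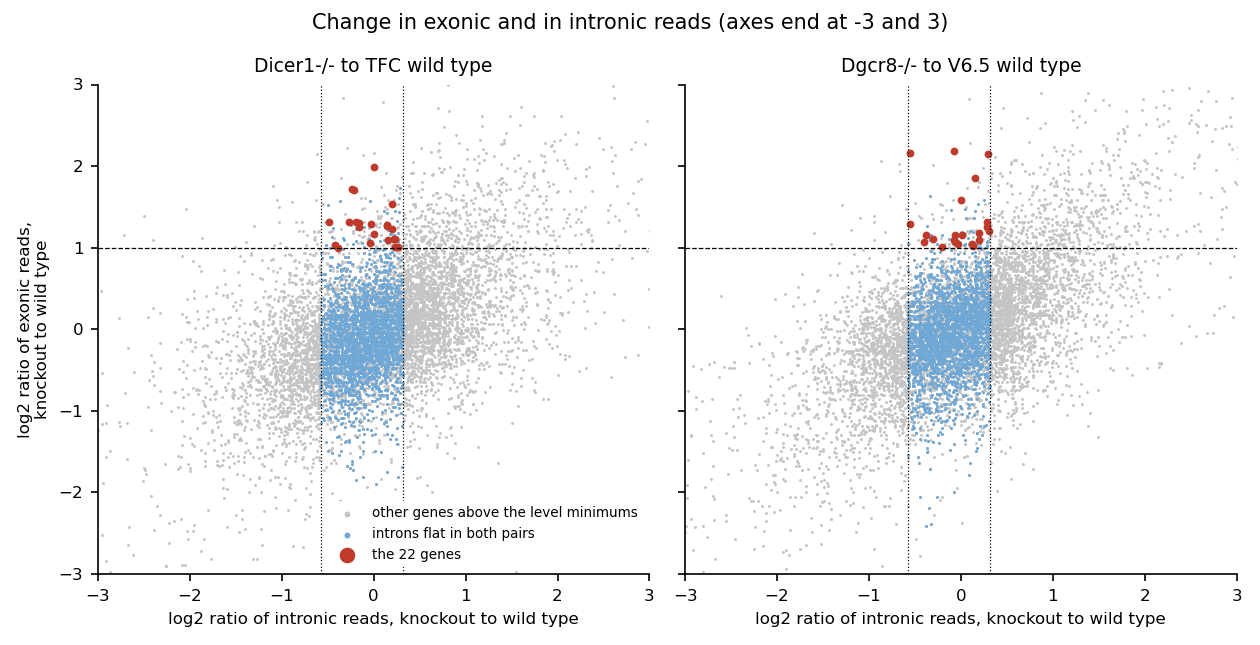
Each point is a gene above the level limits, with the log2 ratio of intronic reads on the x axis and of exonic reads on the y axis, for the Dicer pair (left) and the Dgcr8 pair (right). Red points are the 22 genes, above the dashed line at an exonic ratio of 2 and between the dotted lines at the limits of the intronic ratio, and blue points are the 2507 other genes with flat introns.

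Introns set the second side of the rule, and their depth was lower. Recovered intronic reads of the 22 genes ran from 14 to 1776 per library in Dicer1-/- and from 0 to 2697 in TFC. They ran from 8 to 1621 in Dgcr8-/- and from 0 to 684 in V6.5, with a median of 76.5 in V6.5. Intronic ratios ran from 0.71 in Spryd3 to 1.199 in Pafah1b2 in the Dicer pair and from 0.683 in Mtf1 to 1.24 in Nagpa in the Dgcr8 pair, and were under 1 in 12 of the 22 genes in each pair. The intronic groups overlapped in 21 of 22 genes in each pair, the exceptions being Phc3 in the Dicer pair and Dazap2 in the Dgcr8 pair. With 1 intronic library left out at a time, intronic ratios of the 22 genes ranged from 0.542 to 4.36, so flat means flat in the group mean. Zfp367 and Phc3 stayed in the range in all 12 such cases.

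**Figure D5:**
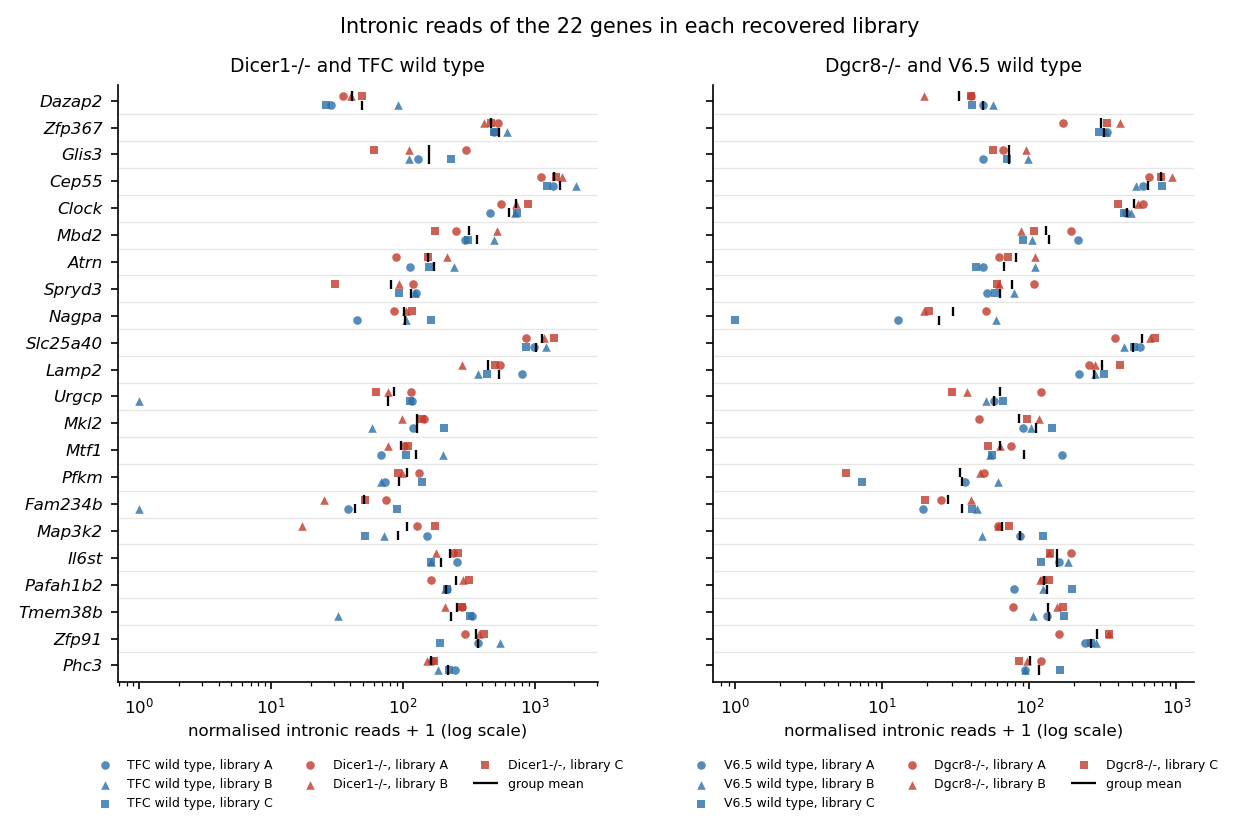
Points are normalised intronic reads plus 1 (log scale) of each of the 22 genes in each recovered library, knockout in red and wild type in blue, with the shape giving the library and a black tick the group mean. Red and blue overlap in nearly every gene, and the points at 1 are Fam234b and Urgcp in TFC library B and Nagpa in V6.5 library C, which have 0 reads.

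Per length, exonic reads of the 22 genes were less abundant in wild type than those of the other genes with flat introns. The median level in TFC was 143 normalised reads per kilobase of exon against 480.5, and in V6.5 104 against 334.5. This is not particular to the 22 genes. In the genes with exons up and introns not flat the medians were lower still, 86.3 in TFC and 60.2 in V6.5. The median ratio of exonic to intronic reads per kilobase was 31.1 in TFC and 75.6 in Dicer1-/-, and 39.95 in V6.5 and 85.8 in Dgcr8-/-. In the other genes with flat introns it was 40.9 and 40.9 in the Dicer pair and 49.1 and 52.4 in the Dgcr8 pair. In the genes with exons up and introns not flat it was 40.8 in TFC and 60.8 in Dicer1-/-, and 51.2 in V6.5 and 67.6 in Dgcr8-/-. Dazap2 had a ratio of exonic to intronic density of 90.6 in TFC and 353 in Dicer1-/-, and 45.4 in V6.5 and 300 in Dgcr8-/-. The lowest was Nagpa, with 2.94 and 7.39 in the Dicer pair. The choice of the 22 genes fixes the direction of their shifts.

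At the limits of the rule, the smaller exonic ratio of Mtf1, Il6st and Pafah1b2 was 2.006, 2.008 and 2.012, just inside, and that of Twf1, Golga1 and Dctn4 was 1.93, 1.93 and 1.897, just outside. At the upper intronic limit Nagpa, Cep55 and Atrn lay inside at 1.243, 1.23 and 1.218, and March8 and Hp1bp3 outside at 1.326 and 1.345. At the lower limit Mtf1, Dazap2 and Spryd3 lay inside at 0.6831, 0.6848 and 0.7103, and Gpkow, Polq and Ppp1r37 outside at 0.5634, 0.4844 and 0.3755. Of the genes left out by name, 3 failed on 1 intronic ratio near these values: Tnrc6a at 1.319 in the Dgcr8 pair, Ago1 at 1.343 in the Dicer pair and Tnrc6b at 0.6386 in the Dicer pair. Their exonic ratios in the Dicer and Dgcr8 pairs were 2.58 and 2.516 in Tnrc6a, 2.9 and 3.317 in Ago1, and 2.28 and 2.932 in Tnrc6b.

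A list of 23 genes reported as targets of miR-290 or miR-302 microRNAs was set beside the 22 genes. It was written with earlier results of these data known, so its share of calls is only a description. The longest UTRs of Nr2f2, Rela, Bmpr2 and Dkk1 on this list hold no miR-294-3p match. Mbd2 is the only gene both on the list and among the 22. Of the other 22 listed genes, limma on log2(value + 1) called 3 of 21 tested higher in Dicer1-/- exons, where 1.02% of all genes tested were called higher, and none lower, where 0.228% of all genes tested were. They were the Hippo kinase Lats2 (log2 fold change 3.39, SE 0.34; adjusted p = 0.0077), the caspase Casp2 (1.904, SE 0.30; adjusted p = 0.0289) and the cell-cycle inhibitor Cdkn1a (1.26, SE 0.24; adjusted p = 0.0457). In Dgcr8-/- exons 4 of 22 tested were called higher, where 0.746% of all genes were called higher, and none lower, where 0.518% were: Lats2 (2.10, SE 0.31; adjusted p = 0.0307), the retinoblastoma relative Rbl2 (2.83, SE 0.42; adjusted p = 0.0308), the apoptosis-linked Ei24 (1.79, SE 0.23; adjusted p = 0.0248) and the cyclin Ccnd2 (2.08, SE 0.37; adjusted p = 0.0463). Without library B of the knockout, limma called 0 genes in either pair, so each of these calls is lost there (1217 and 1329 genes had an unadjusted p under 0.05). Their log2 fold changes moved little: without that library they were 3.395 for Lats2, 1.794 for Casp2 and 1.218 for Cdkn1a in the Dicer pair, and 2.147 for Lats2, 2.618 for Rbl2, 1.752 for Ei24 and 2.056 for Ccnd2 in the Dgcr8 pair. On all libraries, limma-voom kept only Lats2 in the Dicer pair (adjusted p = 0.0246) and Ei24 (0.0377). It gave 0.0513 to 0.0802 for the others. With no variance trend, limma lost Casp2 (0.116), Cdkn1a (0.16), Ccnd2 (0.0848) and Lats2 in the Dgcr8 pair (0.0528). With a term for library A against B and C, chosen after seeing the data, 13 of 21 listed genes were called in the Dicer pair, all 13 higher, and 12 of 22 in the Dgcr8 pair, 11 of them higher and Dkk1 lower. That term raised the calls over all genes as well. Of 13167 genes in the Dicer pair 955 were called higher and 652 lower. Of 12742 in the Dgcr8 pair 1063 were called higher and 1097 lower.

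Each gene called from this list failed at least 1 limit of the rule. Lats2 had intronic ratios of 4.16 and 1.49, Cdkn1a 2.65 and 0.426, and Casp2 1.55 and 0.726. Rbl2 had 0.243 in the Dicer pair. Ei24 had 2.05 in the Dgcr8 pair, and Ccnd2 stood at 22.1 and 15.9 intronic reads there, under the level limit. In the test of exonic minus intronic change, limma called 0 of 10982 genes in the Dicer pair and 0 of 10354 in the Dgcr8 pair, whether or not they belong to the 22, with 389 and 590 at an unadjusted p under 0.05. That test sets each exonic library against the intronic library it correlated with best as a set, and those correlations were weak, from 0.093 to 0.431. No gene was singled out by that test, and the 22 genes rest on group means.

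Among the 2503 other genes with flat introns and a UTR, which had to lie under the exonic limit in 1 pair or both, the median log2 exonic ratio was -0.155 in the Dicer pair and -0.0857 in the Dgcr8 pair for the 2057 genes with no miR-294-3p match. It was 0.0218 and 0.0732 for the 359 genes with 1 match, -0.0327 and 0.0949 for the 87 with 2 or more, and 0.105 and 0.195 for the 88 with an 8-base match. The quartiles of these sets overlapped widely, from -0.436 to 0.136 without a match and from -0.171 to 0.376 with an 8-base match in the Dicer pair.

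All 10 markers of pluripotent cells, such as Pou5f1, Nanog and Sox2, were above 0 in every group mean. In the Dicer pair 5 were higher in the knockout and 5 in TFC. In the Dgcr8 pair 8 were higher in the knockout and 2 in V6.5, and the summed reads of the 8 markers resolved per library ranged from 59861 to 94352 in Dgcr8-/- and from 25920 to 80395 in V6.5. Of the lists for other cell types, summed exonic reads of 14 primitive endoderm markers ranged from 20391 to 31905 in Dicer1-/- libraries and from 8686 to 10865 in TFC, but from 13918 to 14492 in Dgcr8-/- and from 15499 to 25256 in V6.5, and Afp was at 0 in all 4 groups. By gene, 5 were higher in Dicer1-/- and 7 in TFC, and 3 in Dgcr8-/- and 10 in V6.5. Those of 13 trophectoderm markers ranged from 5300 to 7140 against 2114 to 6566 in the Dicer pair and from 2266 to 3710 against 11101 to 15060 in the Dgcr8 pair, with 10 genes higher in Dicer1-/- and 3 in TFC, and 1 in Dgcr8-/- and 12 in V6.5. The summed reads of mesoderm and of fibroblast markers had a higher median library in Dicer1-/- than in TFC and a lower one in Dgcr8-/- than in V6.5, but by gene most mesoderm markers (6 against 4) and fibroblast markers (10 against 4) were higher in TFC. Mesp1 was at 0 in all 4 groups, and Col1a2, Col3a1, Postn, Lum and Prrx1 were at 0 in Dicer1-/-. In the Dgcr8 pair 7 mesoderm markers and 11 fibroblast markers were higher in V6.5, against 3 and 4 in the knockout. Neural markers ranged from 4692 to 6710 against 3347 to 5118, and from 5771 to 7652 against 3916 to 8022, with 6 genes higher in Dicer1-/- and 3 in TFC, and 7 in Dgcr8-/- and 4 in V6.5. The part of these differences in the exonic ratios was not tested, and in such bulk samples more cells of a type and more RNA per cell cannot be told apart.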

How the data were processed

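Polyadenylated RNA of mouse ESCs was sequenced in 12 libraries. The deposited values are a signal: reads normalised by the authors with size factors, in 4 tables (exons and introns, for each pair). Per the file headers a column holds 1 genotype, so levels are the authors' group means. The submitters' processing notes name TopHat2 2.0.12, DESeq and mm10, and the assignment of reads to exons or introns is not given in those notes or the labels. Reads of overlapping genes and near-identical copies may be shared.

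Each deposited mean is a whole-number combination of 3 steps, 1 per library. Solving for them gave size factors and whole reads per library, with 1 solution for 99.44 to 100.0% of genes; genes with several were not used per library. In simulated columns 100.0% of 4000 genes had 1 solution, all right. Of the recovered exonic read numbers 69.2 to 86.7% were even. Genes with no reads count as even and may raise this share, so it cannot show whether the reads are independent. Since they may not be, counting intervals were not computed.

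limma 3.58.1 in R 4.3.3 (variance trend, log2(value + 1), genes with a mean of at least 10, Benjamini-Hochberg adjusted p under 0.05) was used for genes outside the 22, and tested on simulated data; p-values measure only the spread between these libraries. Exonic minus intronic log2 values were centred on the library median, with intronic libraries tied to exonic ones by the correlation across genes of their deviations from the group mean, which was only 0.306 to 0.431 for library A and 0.093 to 0.287 for B and C. The longest 3′ UTR per gene came from GENCODE vM21 (GRCm38), which matched 18353 of 18412 symbols, and miRNA sequences from RefSeq. Named are all 22 genes, the 3 genes nearest each limit on either side, the 7 left out by name aside (1 is not reported here), and listed targets that passed a test. The 22 genes, the lists and the letters A to C were chosen with earlier results of these data known. No unused column of per-sample values was present. Figures were drawn with matplotlib 3.10.9.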

Additional observations from a re-analysis of the deposited data

How the results depend on the processing

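The number of genes meeting the rule was 22. It was 72 at an exonic ratio of at least 1.5, 1 at 3, and 67 with intronic ratios from 0.5 to 2, and stayed between 16 and 23 with intronic ratios from 0.8, level limits of 10 or 50, or an added 0 or 10. With 1 library left out at a time it was 15 to 28, and 14 to 21 of the 22 genes were among them. Without library A of every group it was 24, including 18 of the 22. The share with a miR-294-3p match, 77.3%, was 27.3% for 8-base matches and 81.8% for 6-base matches (34.0% in the other genes with flat introns). It was 77.3% when a match in any annotated UTR counted, a setting that cannot lower the share because it includes the longest UTR. Only 9 of the 22 genes held the match in every annotated UTR.

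limma called 164 genes in Dicer1-/- exons. It called 28 with no filter, 35 with no variance trend, 1607 with a term for library A against B and C, 21 with limma-voom, and 0 to 483 with 1 library left out (0 without Dicer1-/- B or C or TFC C, 7 without TFC B, 90 without Dicer1-/- A, 483 without TFC A). In Dgcr8-/- exons it called 161, or 2160 with the library term, 49 with limma-voom, and 0 to 465 with 1 left out (0 without B or C of either group, 465 without Dgcr8-/- A, 382 without V6.5 A). The cause was not tested. The test of exonic minus intronic change called 0 genes in both pairs under every alternative run.

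No paired analysis was possible because replicate numbers cannot be tied to the recovered libraries.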

Other observations

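Close relatives of 12 of the 22 genes, picked from textbook knowledge after the 22 were known, can be set beside them. Lamp1, the other main lysosomal membrane protein, had 12508 exonic reads in Dicer1-/- and 14699 in TFC, and 8861 in Dgcr8-/- and 9729 in V6.5, and its UTR holds neither seed match, where Lamp2 had ratios of 2.48 and 2.14. Phc1 and Phc2, the other polyhomeotic genes, had exonic ratios of 0.631 and 1.16 in the Dicer pair and 1.21 and 0.738 in the Dgcr8 pair. Pfkl and Pfkp, the liver and platelet forms of phosphofructokinase, had 0.49 and 0.275 in the Dicer pair and 0.848 and 0.996 in the Dgcr8 pair, where Pfkm had 2.34 and 2.10. The UTR of Pfkp holds 1 miR-294-3p and 1 miR-20a-5p match, where that of Pfkm holds neither. Introns of Pfkp were lower in both knockouts too, with intronic ratios of 0.176 in the Dicer pair and 0.672 in the Dgcr8 pair. In the same order, intronic ratios were 0.908 and 0.454 in Pfkl, 0.638 and 1.07 in Phc1, and 1.21 and 0.472 in Phc2. Exonic ratios alone thus do not show how these relatives changed against their introns. Glis2, a relative of Glis3, has 1 miR-294-3p match and had exonic ratios of 1.38 and 0.9996. Among the relatives with miR-20a-5p matches only, Mbd1, with 1 match, had 1.43 and 1.79, and Phc2 also has 1 match. Mkl1, the partner of Mkl2, had 1.53 and 1.22, and Mbd3 0.901 and 0.854.

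Lifr, the receptor subunit that binds LIF together with Il6st, had 3175 exonic reads in Dicer1-/- and 3374 in TFC. In the Dgcr8 pair it had 3641 in Dgcr8-/- against 1048 in V6.5 (log2 fold change 1.77, SE 0.36), with an adjusted p of 0.0613 in limma. Intronic ratios of Lifr were 0.653 in the Dicer pair and 1.15 in the Dgcr8 pair. Its exons were thus raised with flat introns in the Dgcr8 pair only, and its UTR of 6320 bases holds no match to either seed. Npas2, which can stand in for Clock and has 2 miR-20a-5p matches, had 54.6 against 1.43 reads in the Dicer pair and 20.9 against 1.69 in the Dgcr8 pair, with adjusted p-values of 0.191 and 0.246. The adjusted p of Lifr in the Dgcr8 pair was the lowest over both pairs among the 15 relatives tested. Differences between a gene and its relative were not tested.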
